A study of Homo sapiens with 24 samples.

Results

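The genes followed here are 43 genes of the integrated stress response, which is directed by the transcription factor ATF4, and of the unfolded protein response of the endoplasmic reticulum (ER). They were taken by symbol from a list of ATF4 targets for amino acid synthesis, amino acid transport and tRNA charging, and of ER chaperones and sensors. All 43 were found among the 58676 gene identifiers of the count table. HSJD-DIPG-007, an established patient-derived diffuse midline glioma (DMG) line grown as spheroids, was treated with vehicle or with LLY-283, an inhibitor of the protein arginine methyltransferase PRMT5, at the dose that inhibits growth by 40%. RNA was sequenced in 24 libraries, 12 from each treatment group. Days 0 and 5 have 3 libraries for vehicle and 3 for LLY-283, day 7 has 2 for each, and days 1, 2, 3 and 10 have 1 for each. Medium and compound or vehicle were renewed after 5 days.

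Both treatment groups share the genotype of the line, which is labelled as H3F3A K27M, ACVR1 R206H and PIK3CA MIS. A single line was used, and the repeats are described by the study as technical, so p-values measure only the spread between these libraries and not that between independent cultures. Library totals lay between 13835205 and 23190369 counts. The oligodendrocyte lineage and progenitor genes OLIG1, OLIG2, PDGFRA, CSPG4, NES, SOX2 and VIM were present in every library, whereas SOX10 did not exceed 0.603 CPM (counts scaled to a common library total). Summed fibroblast markers ranged from 216 to 400 CPM over the 24 libraries, and vehicle repeat 3 of day 5 was the highest. COL1A1, COL1A2, COL3A1 and FN1 were raised together in that library, with FN1 at 60.42 CPM. The same held for vehicle repeat 1 of day 7 (FN1 29.97 CPM) and the LLY-283 library of day 2 (26.02 CPM). The LLY-283 library of day 10 summed to 399 CPM with POSTN at 145.7 CPM. Immune markers summed to at most 1.19 CPM with PTPRC at 0 in 14 libraries, neuron markers to at most 2.27 CPM, and endothelial markers to between 4.28 and 25 CPM, nearly all of it PECAM1, with CDH5 at 0 in 13 libraries. The day 7 libraries labelled repeat 2 stood apart from the day 7 libraries labelled repeat 1 of the same treatment over the other genes, as given with the day 7 values. Most counts of calls from fits over several days that include the libraries labelled repeat 2 are therefore given with and without those libraries.

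When amino acids run short or unfolded protein collects in the ER, kinases that include PERK (encoded by EIF2AK3) phosphorylate the translation factor eIF2, which slows protein synthesis while allowing ATF4 protein to be made. ATF4 then drives genes that make, import and charge amino acids onto tRNA, and genes that feed back on the response. In parallel, the ER sensors IRE1 (encoded by ERN1) and ATF6 activate chaperone, folding and degradation genes, IRE1 by splicing the XBP1 mRNA. ATF4 is controlled largely at translation and XBP1 by splicing, and neither step is measured by gene counts.

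Promoter windows, from 250 bases before to 50 bases after a start site, were taken from RefSeq (GRCh38.p14) for 38 of the 43 genes, and 14 of these had more than 1 window. NUPR1, PSPH, SHMT2, ALDH1L2 and PDIA3 had none. Both strands were searched for the letters TGATGNAA of the C/EBP-ATF response element, which ATF4 can bind with C/EBP partners, and for the ER stress response element, which is CCAAT, any 9 bases, then CCACG. The variant ATTGGNCCACG, called ER stress response element II, and the letters TGACGTGG of an ATF6 and XBP1 core were also searched. TGATGNAA was found in windows of 6 of the 38 genes, which were ASNS, CEBPG, AARS1, HERPUD1, SLC3A2 and CHAC1, against 3.62% of all 35116 windows and 4.46% of the 27305 genes with one. The ER stress response element was found in 7 genes, PDIA6, CANX, HSPA5, HSP90B1, CALR, XBP1 and CRELD2, against 0.0769% of windows and 0.0916% of genes. Element II was found in HERPUD1 and SDF2L1, against 0.0541% of windows, and TGACGTGG in none of the 38, against 0.729%. No matches of different motifs overlapped. The matches describe letters in these windows and are not shown to be bound in these cells. Since the members were listed as genes of these responses, the shares are descriptive, and enrichment was not tested.

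The following 6 windows are printed because they belong to genes of both arms of the response whose levels or fold changes are given in the day 5 results. They read 5′ to 3′ along the gene, with matched letters in capitals.
HSPA5, chr9:125241294-125241593, minus strand: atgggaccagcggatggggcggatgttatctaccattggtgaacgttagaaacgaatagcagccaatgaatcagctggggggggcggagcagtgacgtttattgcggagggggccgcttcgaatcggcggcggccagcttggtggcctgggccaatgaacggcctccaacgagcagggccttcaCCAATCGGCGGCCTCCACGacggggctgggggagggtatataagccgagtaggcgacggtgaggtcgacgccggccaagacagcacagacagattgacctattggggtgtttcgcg
XBP1, chr22:28800520-28800819, minus strand: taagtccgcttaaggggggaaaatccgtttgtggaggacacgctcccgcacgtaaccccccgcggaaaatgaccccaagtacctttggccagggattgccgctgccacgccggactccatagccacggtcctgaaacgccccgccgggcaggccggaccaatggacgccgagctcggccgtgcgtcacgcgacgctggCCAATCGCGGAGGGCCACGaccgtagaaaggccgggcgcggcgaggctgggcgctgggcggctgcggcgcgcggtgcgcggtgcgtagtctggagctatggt
SDF2L1, chr22:21642052-21642351, plus strand: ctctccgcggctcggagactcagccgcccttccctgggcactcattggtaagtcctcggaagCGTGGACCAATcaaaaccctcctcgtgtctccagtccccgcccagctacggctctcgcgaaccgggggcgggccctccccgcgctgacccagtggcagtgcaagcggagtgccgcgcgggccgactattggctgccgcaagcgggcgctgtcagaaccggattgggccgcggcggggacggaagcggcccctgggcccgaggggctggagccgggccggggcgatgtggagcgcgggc
HERPUD1, chr16:56931892-56932191, plus strand: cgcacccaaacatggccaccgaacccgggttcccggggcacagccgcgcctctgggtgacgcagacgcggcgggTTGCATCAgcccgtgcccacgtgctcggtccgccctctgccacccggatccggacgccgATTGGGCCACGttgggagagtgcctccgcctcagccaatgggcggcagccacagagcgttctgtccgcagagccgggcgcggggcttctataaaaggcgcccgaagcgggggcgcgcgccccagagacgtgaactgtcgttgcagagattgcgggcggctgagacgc
ASNS, chr7:97872359-97872658, minus strand: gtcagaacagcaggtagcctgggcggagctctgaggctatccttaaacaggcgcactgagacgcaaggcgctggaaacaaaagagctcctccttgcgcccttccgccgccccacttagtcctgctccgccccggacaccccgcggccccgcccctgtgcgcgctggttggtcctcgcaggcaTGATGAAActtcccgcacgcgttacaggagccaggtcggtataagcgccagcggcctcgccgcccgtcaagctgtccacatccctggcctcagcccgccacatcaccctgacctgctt
CEBPG, chr19:33373863-33374162, plus strand: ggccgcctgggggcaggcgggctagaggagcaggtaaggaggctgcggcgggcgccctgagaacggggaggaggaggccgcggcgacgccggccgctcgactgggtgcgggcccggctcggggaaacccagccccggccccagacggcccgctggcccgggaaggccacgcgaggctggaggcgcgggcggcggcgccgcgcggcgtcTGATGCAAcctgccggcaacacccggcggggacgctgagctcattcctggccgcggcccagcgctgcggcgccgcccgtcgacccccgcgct
In HSPA5 the match lay 66 to 48 bases before the start site, in XBP1 52 to 34 bases before it, and in SDF2L1 188 to 178 bases before it on the other strand. HERPUD1 held both kinds of element, the C/EBP-ATF letters at 176 to 169 bases and element II at 117 to 107 bases before the start. The C/EBP-ATF letters lay 68 to 61 bases before the start in ASNS and 42 to 35 in CEBPG.

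The main question was how LLY-283 changed these transcripts at day 5, the only day after the start with 3 libraries in each treatment group. Genes were tested in edgeR with the quasi-likelihood test and called at a Benjamini-Hochberg adjusted p under 0.01. Of the 43 genes, 42 were tested. CHAC1, a glutathione-degrading target of ATF4, had 0 to 0.165 CPM in each library and was not tested. With LLY-283, 19 genes were lower and 3 were higher, against 14.1% lower and 12% higher among all 16491 genes tested. The median log2 fold change (LLY-283 over vehicle) was -0.153, against 0.0206 for all genes. In cultures sequenced whole, fewer cells of a kind and less RNA per cell cannot be told apart. Since calls were more frequent among well-expressed genes, the 36 members with a mean of at least 20 CPM were also set beside all 8359 genes of that level. Of those members 18 were lower and 3 higher, beside 25.2% lower and 15.2% higher of all such genes. In a fit shared by the 22 libraries of days 0 to 7, 8 members were lower and 0 higher at day 5, against 9.84% of 20756 genes called in either direction. Among the calls lost there were PHGDH (adjusted p = 0.0113), MTHFD2 (adjusted p = 0.012) and TRIB3 (adjusted p = 0.0252, edgeR). Without both day 7 libraries labelled repeat 2 that fit gave 20 members lower and 2 higher, against 20.8% of 20714 genes called in either direction.

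**Figure D1:**
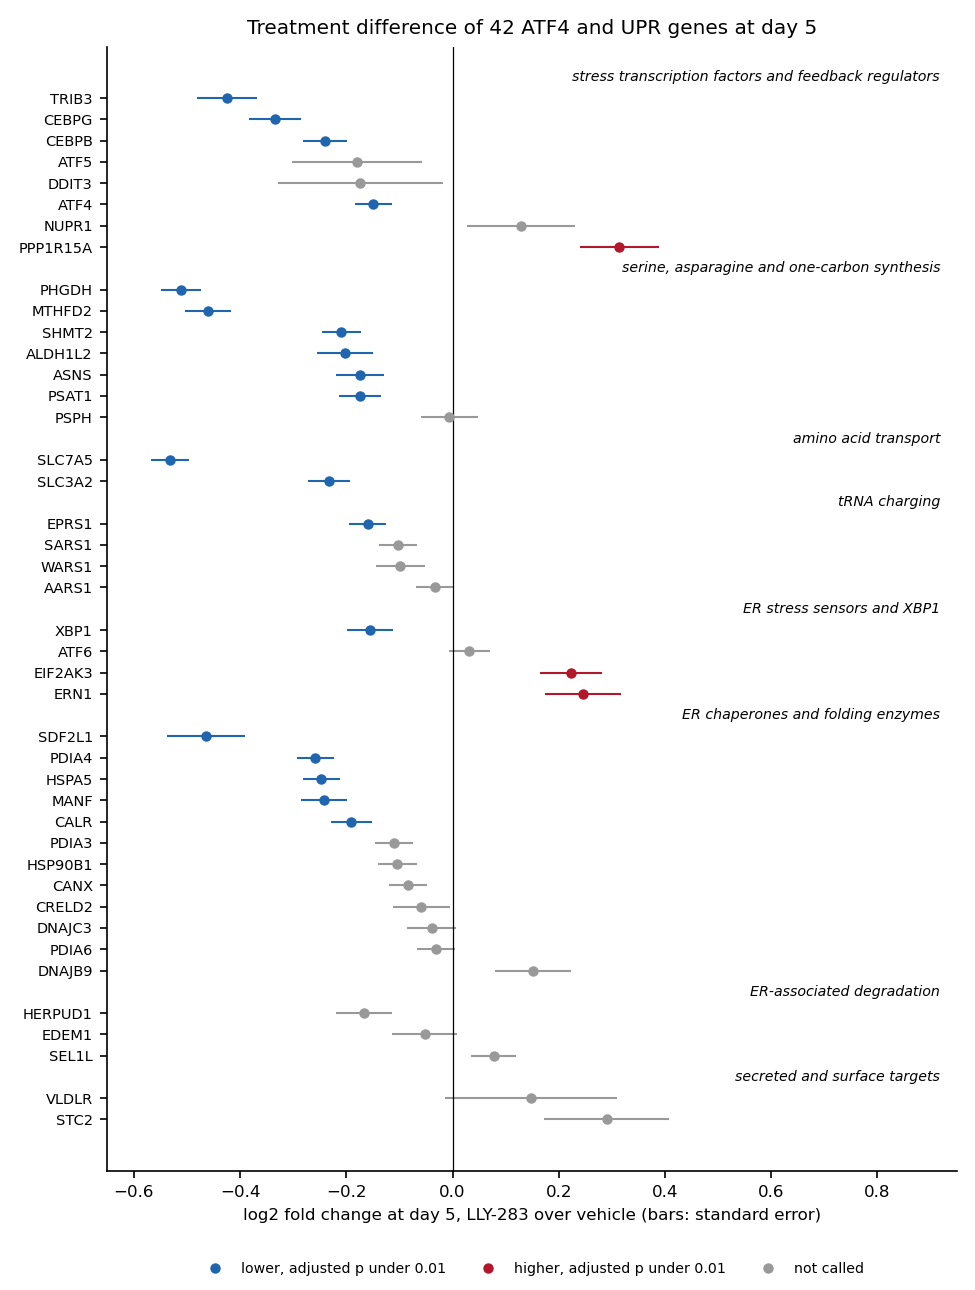
Log2 fold change at day 5 (x axis, LLY-283 over vehicle, 3 libraries each, bars are standard errors) for 42 genes grouped by role. The 19 genes called lower lie between -0.53 and -0.15, and the 3 called higher between 0.22 and 0.31.

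Amino acid transport and serine and one-carbon synthesis gave the lowest values. SLC7A5 and SLC3A2 encode the light and heavy chains of the LAT1 transporter for large neutral amino acids. SLC7A5 (ENSG00000103257, chr16:87830023-87869507, minus strand, GRCh38) measured 371.6, 343.6 and 349.9 CPM in the vehicle libraries and 247.5, 238.8 and 238.1 CPM in the LLY-283 libraries. Every LLY-283 library was below every vehicle library, and the log2 fold change was -0.53 (SE 0.0361, adjusted p = 5.46e-12, edgeR). SLC3A2 measured 141.4, 131.8 and 133.2 CPM with vehicle and 116.7, 109.8 and 113.8 CPM with LLY-283. Its groups did not overlap either, with a log2 fold change of -0.23 (SE 0.0395, adjusted p = 3e-05, edgeR).

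Of the 7 genes for serine, asparagine and one-carbon synthesis, 6 were lower with LLY-283 and PSPH was not called. Of all genes tested 14.1% were lower, and of those of at least 20 CPM 25.2%. PHGDH (ENSG00000092621, chr1:119648411-119744218, plus strand), the first enzyme of serine synthesis from glucose, measured 155.9, 153.9 and 147.2 CPM with vehicle and 108.5, 105 and 102 CPM with LLY-283. The groups were well apart, and the log2 fold change was -0.51 (SE 0.0384, adjusted p = 4.06e-11, edgeR). MTHFD2, a mitochondrial folate enzyme, measured 154.3, 159.5 and 160.1 CPM with vehicle against 121.7, 103.9 and 113.1 CPM with LLY-283. It was lower by a similar amount, with a log2 fold change of -0.46 (SE 0.0433, adjusted p = 4.1e-09, edgeR). SHMT2, which moves a carbon unit from serine to folate in mitochondria, measured 278.2, 272 and 258.2 CPM with vehicle and 238.3, 224.5 and 224.9 CPM with LLY-283. Its groups were separate, at a log2 fold change of -0.21 (SE 0.0365, adjusted p = 4.2e-05, edgeR).

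Smaller differences were found for PSAT1, the second enzyme of serine synthesis, and for ASNS, which makes asparagine, with a log2 fold change of -0.17 for each. ALDH1L2, another mitochondrial folate enzyme, was at -0.20. The ASNS call was lost without vehicle repeat 1 (adjusted p = 0.0227) or LLY-283 repeat 2 (adjusted p = 0.0183), and that of PSAT1 without LLY-283 repeat 3 (adjusted p = 0.0153, edgeR). ALDH1L2 lost its call without vehicle repeat 1, LLY-283 repeat 1 or LLY-283 repeat 2, with adjusted p of 0.0258, 0.0186 and 0.0331 (edgeR). PSPH, the last enzyme of serine synthesis, stood at -0.01 (SE 0.0536, adjusted p = 0.942, edgeR). In counts over all libraries, reads given to the pseudogene PSPHP1 amounted to 8.75% of those given to PSPH. ASNS shares exon sequence on the same strand with the annotated gene ENSG00000284707. ALDH1L2 overlaps exons of NOPCHAP1 and WASHC4 on the other strand. Over all libraries those genes held 49373 counts and ALDH1L2 36470.

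Among the transcription factors and feedback regulators, 4 of 8 tested genes were lower and 1 was higher, beside 14.1% and 12% of all genes tested. Of all genes of at least 20 CPM, 25.2% were lower and 15.2% higher. ATF4 itself (ENSG00000128272, chr22:39519695-39522683, plus strand) measured 286, 281 and 271.1 CPM with vehicle and 254.9, 247.2 and 241 CPM with LLY-283. The groups did not overlap, but the difference was small, with a log2 fold change of -0.15 (SE 0.0351, adjusted p = 0.00125, edgeR), and without LLY-283 repeat 3 the adjusted p was 0.0107. TRIB3, a pseudokinase that restrains ATF4, measured 58.63, 51.58 and 52.22 CPM with vehicle and 42.04, 39.87 and 37.34 CPM with LLY-283. The log2 fold change was -0.43 (SE 0.0568, adjusted p = 9.7e-07, edgeR), and every library with the compound lay below the vehicle range.

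CEBPG and CEBPB encode partners with which ATF4 can pair on DNA. CEBPG measured 111.3, 107.9 and 116.5 CPM with vehicle and 95.28, 87.25 and 79.58 CPM with LLY-283, a log2 fold change of -0.33 (SE 0.0489, adjusted p = 1.12e-05, edgeR). CEBPB measured 107.3, 102.8 and 111.2 CPM with vehicle and 90.73, 90.3 and 86.28 CPM with LLY-283, with a log2 fold change of -0.24 (SE 0.0412, adjusted p = 3.44e-05, edgeR). Both were thus separated between the treatment groups. DDIT3, which encodes the stress factor CHOP, measured 5.03, 4.796 and 5.318 CPM with vehicle and 4.956, 4.47 and 3.799 CPM with LLY-283. These ranges overlapped, and the log2 fold change of -0.17 was not called (SE 0.155, adjusted p = 0.413, edgeR). DDIT3 overlaps exons of MARS1 and MBD6 on the other strand and of ENSG00000285133 on the same strand. Over all libraries these genes held 90485 counts and DDIT3 2610. The strand setting of the counting is not given in the sources used here.

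PPP1R15A, which encodes the phosphatase subunit GADD34 that reverses eIF2 phosphorylation, went the other way. It measured 19.07, 19.05 and 17.87 CPM with vehicle and 23.85, 20.93 and 23.74 CPM with LLY-283. The log2 fold change was 0.31 (SE 0.0748, adjusted p = 0.00142, edgeR), and the call was lost in DESeq2 (adjusted p = 0.0138) and without vehicle repeat 3 (adjusted p = 0.0128) or LLY-283 repeat 3 (adjusted p = 0.0149, edgeR). At day 0 PPP1R15A already measured 62.38, 59.26 and 58.71 CPM with LLY-283 and 48.77, 55.14 and 53.08 CPM with vehicle. The difference between its changes from day 0 to day 5 was not called. ATF5 and NUPR1, 2 further factors of the response, were not called at day 5, at -0.18 and 0.13.

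The ER sensors and XBP1 did not share a direction. EIF2AK3, the gene of PERK, measured 30.62, 28.84 and 29.25 CPM with vehicle and 34.35, 34.03 and 33.44 CPM with LLY-283, a log2 fold change of 0.22 (SE 0.0585, adjusted p = 0.00342, edgeR). ERN1, the gene of IRE1, measured 22.67, 23 and 20.83 CPM with vehicle and 28.63, 24.51 and 24.69 CPM with LLY-283, a log2 fold change of 0.25 (SE 0.0716, adjusted p = 0.00765, edgeR). XBP1 (ENSG00000100219, chr22:28794555-28800597, minus strand) measured 105.6, 109.1 and 107.9 CPM with vehicle and 103.3, 91.25 and 90.37 CPM with LLY-283, a log2 fold change of -0.16 (SE 0.0436, adjusted p = 0.00564, edgeR). In all 3 genes the treatment groups were separate, yet none of the 3 calls was kept in DESeq2, where the adjusted p was 0.0322 for EIF2AK3, 0.0489 for ERN1 and 0.0154 for XBP1. In edgeR the ERN1 call was lost without any library except LLY-283 repeat 2 (adjusted p 0.0109 to 0.0767). The XBP1 call was lost without repeat 2 or 3 of either treatment group (0.0221 to 0.05), and the EIF2AK3 call without any library except vehicle repeat 1 (0.0105 to 0.0276). ATF6 stood at 0.03 (SE 0.0382, adjusted p = 0.559, edgeR).

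Of 12 ER chaperones and folding enzymes, 5 were lower with LLY-283 and none was called higher. Of all genes tested 14.1% were lower and 12% higher, and of those of at least 20 CPM 25.2% were lower. HSPA5 (ENSG00000044574, chr9:125234853-125241382, minus strand), the gene of the chaperone BiP and a usual gauge of ER stress, measured 756.9, 723.5 and 721.6 CPM with vehicle and 636.8, 589.8 and 597.7 CPM with LLY-283. All LLY-283 libraries lay below the vehicle libraries, at a log2 fold change of -0.25 (SE 0.0352, adjusted p = 2.55e-06, edgeR). SDF2L1, a partner of ER chaperones, measured 24.03, 23 and 25.11 CPM with vehicle and 17.96, 17.36 and 16.1 CPM with LLY-283, a log2 fold change of -0.46 (SE 0.0734, adjusted p = 1.14e-05, edgeR). PDIA4, a disulfide isomerase, measured 550.6, 543.5 and 533.3 CPM with vehicle and 467.4, 436.4 and 434.4 CPM with LLY-283, a log2 fold change of -0.26 (SE 0.0344, adjusted p = 9.55e-07, edgeR). The groups were separate for each of these genes. MANF, a secreted ER stress factor, and CALR, a lectin chaperone, were the other 2 called lower, at -0.24 and -0.19.

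The remaining chaperones lay between -0.11 for PDIA3 and 0.15 for DNAJB9 and were not called. The abundant HSP90B1 and CANX, which encode the chaperones GRP94 and calnexin, stood at -0.10 and -0.08, with adjusted p of 0.0291 and 0.0689 (edgeR). Among the genes of ER-associated degradation, none of 3 was called. HERPUD1 measured 49.99, 52.56 and 52.37 CPM with vehicle and 48.75, 42.39 and 44.59 CPM with LLY-283. Those groups did not overlap, but at a log2 fold change of -0.17 the adjusted p was 0.0148 (SE 0.0534, edgeR). EDEM1 and SEL1L stood at -0.05 and 0.08, with overlapping groups.

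Of 4 cytosolic tRNA synthetases among the members, EPRS1, which charges glutamate and proline tRNA, was called lower. Of all genes tested 14.1% were lower, and of those of at least 20 CPM 25.2%. EPRS1 measured 429.1, 405.6 and 414.3 CPM with vehicle and 380.6, 362.7 and 356.2 CPM with LLY-283, a log2 fold change of -0.16 (SE 0.0349, adjusted p = 0.000597, edgeR). SARS1 and WARS1 were each at -0.10 with separate groups but were not called, with adjusted p of 0.0266 and 0.101 (edgeR). AARS1 stood at -0.03 with overlapping groups. STC2, a secreted glycoprotein, measured 7.266, 7.096 and 7.238 CPM with vehicle and 8.397, 9.204 and 8.348 CPM with LLY-283. Its groups were separate, and its log2 fold change of 0.29 had an adjusted p of 0.0517 (SE 0.117, edgeR). VLDLR, a lipoprotein receptor, was at 0.15 with overlapping groups.

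By separation of the libraries alone, 24 of 42 genes had all LLY-283 libraries below all vehicle libraries at day 5, 4 had them above and 14 overlapped, beside 25.5% of all tested genes below and 20.7% above. Of the 9 genes with either ER stress response element in a promoter window, 4 were called lower and none higher, and of the 5 tested genes with the C/EBP-ATF letters, 3 were called lower. Over all 42 members 45.2% were lower and 7.14% higher, and 14.1% of all genes tested were lower. Whether genes with a match differed from the other members was not tested. Fibroblast markers summed to 234, 241 and 400 CPM in the vehicle libraries and to between 316 and 319 CPM in the LLY-283 libraries. Of 11 such markers tested, 3 (POSTN, LUM and THY1) were higher with LLY-283 and 0 were called lower. Of the 11, 7 had a log2 fold change below 0, and the median was -0.625. FN1 measured 2.422, 2.694 and 60.42 CPM with vehicle and 0.758, 0.9993 and 2.199 CPM with LLY-283, and COL1A1 and COL1A2 were also highest in the vehicle library of 60.42 CPM. The markers' part in the differences was not tested. Without the vehicle library of 400 CPM (repeat 3), the calls of PPP1R15A, XBP1, EIF2AK3 and ERN1 were lost (adjusted p 0.0128 to 0.0598, edgeR). No member's call changed direction.

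Related genes outside the list gave the following counts, beside 14.1% lower and 12% higher of all 16491 genes tested. Of all genes of at least 20 CPM, 25.2% were lower and 15.2% higher. Of 22 tested other ATF4 targets, 7 were lower and 3 higher at day 5, with a median log2 fold change of -0.06. They included SLC1A5, a glutamine transporter, at -0.42 (adjusted p = 6.03e-10) and XPOT, the tRNA exporter, at -0.28 (adjusted p = 4.22e-07), whereas KLHL24 was at 0.72 (adjusted p = 1.37e-08, edgeR). Of 16 other cytosolic tRNA synthetases, 9 were lower and none higher, and their median was -0.13. KARS1 at -0.26, FARSB at -0.24 and GARS1 at -0.21 had the smallest p. Of 32 other ER stress genes, 7 (21.9%) were lower and 5 (15.6%) higher with a median of 0.01, near the shares of all genes. DERL3, an ER degradation gene, at -1.16, ERO1B, an ER oxidase, at 0.54 and SSR3, a subunit at the ER translocon, at -0.22 had the smallest p. Of 10 genes for eIF2, its exchange factor, its kinases and a subunit of its phosphatase, 2 were lower, EIF2B3 at -0.41 and EIF2S1 at -0.26.

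Vehicle libraries of day 5 were compared with those of day 0 to show how these genes moved in culture without the compound. Of 42 genes 27 were higher and 6 lower at day 5, against 22.2% higher and 16.7% lower of all 17106 genes tested. The median log2 fold change (day 5 over day 0) was 0.26, against -0.02 for all genes. Among members of at least 20 CPM, 25 of 36 were higher and 4 lower, beside 37.8% and 16.8% of all genes of that level. All 7 genes for serine, asparagine and one-carbon synthesis were higher, as were all 4 tRNA synthetases and 10 of 12 chaperones. Summed fibroblast markers lay between 216 and 231 CPM in the vehicle libraries of day 0, below those of day 5, and their part was not tested.

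XBP1 gave the largest increase among called members. It measured 57.68, 61.53 and 64.12 CPM at day 0 and rose to 105.6, 109.1 and 107.9 CPM at day 5, a log2 fold change of 0.80 (SE 0.0435, adjusted p = 7.55e-15, edgeR). PHGDH rose from 91.21, 97.34 and 99.98 CPM to the day 5 values above, a log2 fold change of 0.65 (SE 0.0403, adjusted p = 1.24e-13, edgeR). In both genes the lowest day 5 library was far above the highest day 0 library. PSAT1 rose from 120.3, 120.6 and 122.7 CPM to 184.1, 179.5 and 189.6 CPM, with a log2 fold change of 0.59 (SE 0.0372, adjusted p = 1.76e-13, edgeR). AARS1, which charges alanine tRNA, rose from 169, 173.3 and 182.7 CPM to 258, 259.7 and 242.9 CPM, with a log2 fold change of 0.52 (SE 0.0385, adjusted p = 5.38e-12, edgeR).

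The rises of SHMT2, PDIA4 and PDIA6 were close to each other, at log2 fold changes of 0.44, 0.43 and 0.42 (adjusted p of 8.14e-11, 1.39e-10 and 1.94e-10, edgeR). SHMT2 had measured 194.1, 199.1 and 196.8 CPM at day 0, and its groups were separate. PDIA4 rose from 379.4, 408.9 and 410.9 CPM. PDIA6, also a disulfide isomerase, rose from 267.4, 288.4 and 293.2 CPM to 386.9, 382.3 and 379.7 CPM. Other increases included SDF2L1 at 0.70, DNAJB9 at 0.59, EIF2AK3 at 0.57 and HERPUD1 at 0.49.

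The largest fall was that of PPP1R15A. It measured 48.77, 55.14 and 53.08 CPM at day 0 and 19.07, 19.05 and 17.87 CPM at day 5, a log2 fold change of -1.50 (SE 0.0628, adjusted p = 2.59e-17, edgeR). ATF5 was lower at -0.88, DDIT3 at -0.61, EDEM1, which directs misfolded glycoproteins to degradation, at -0.48, SLC3A2 at -0.40 and ERN1 at -0.28. ATF5 overlaps exons of IL4I1 and NUP62 on the other strand and of MIR4751 on the same strand. Over all libraries these genes held 71797 counts and ATF5 6049. The ERN1 call was lost without vehicle day 5 repeat 3 (adjusted p = 0.0126, edgeR), in DESeq2 (adjusted p = 0.0103) and in the fit shared by 22 libraries (adjusted p = 0.0148, edgeR). SLC7A5 did not follow its partner SLC3A2, with 333.6, 362.3 and 366.7 CPM at day 0 and a log2 fold change of -0.01 (SE 0.0393, adjusted p = 0.837, edgeR). TRIB3 likewise stood at -0.01. ATF4 rose by 0.20 on the log2 scale (SE 0.0396, adjusted p = 0.000146, edgeR), a call that the fit shared by 22 libraries did not keep (adjusted p = 0.0177). Without both day 7 libraries labelled repeat 2, the shared fit kept the calls of ATF4 and ERN1.

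The single libraries of days 1 to 3 show when these levels were reached, with no test. After 1 day in vehicle, 28 of 42 genes lay above all 3 day 0 libraries and 10 below them, beside 35.5% and 34.1% of 20756 genes. All 12 chaperones were above. HSPA5 went from 580.4, 612.5 and 622.4 CPM at day 0 to 888.9 CPM at day 1, then 832.5 CPM at day 2 and 819.7 CPM at day 3. XBP1 measured 108.5 CPM at day 1 and PPP1R15A 22.12 CPM, so both were near their day 5 levels after 1 day. In the LLY-283 library of day 1, HSPA5 measured 899.8 CPM, XBP1 111.2 CPM and PPP1R15A 21.05 CPM. There 11 of 12 chaperones lay above that group's day 0 libraries, beside 36.4% of 20756 genes above and 33.1% below. PHGDH was slower, with 107.5, 131.7 and 143.8 CPM on days 1, 2 and 3.

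**Figure D2:**
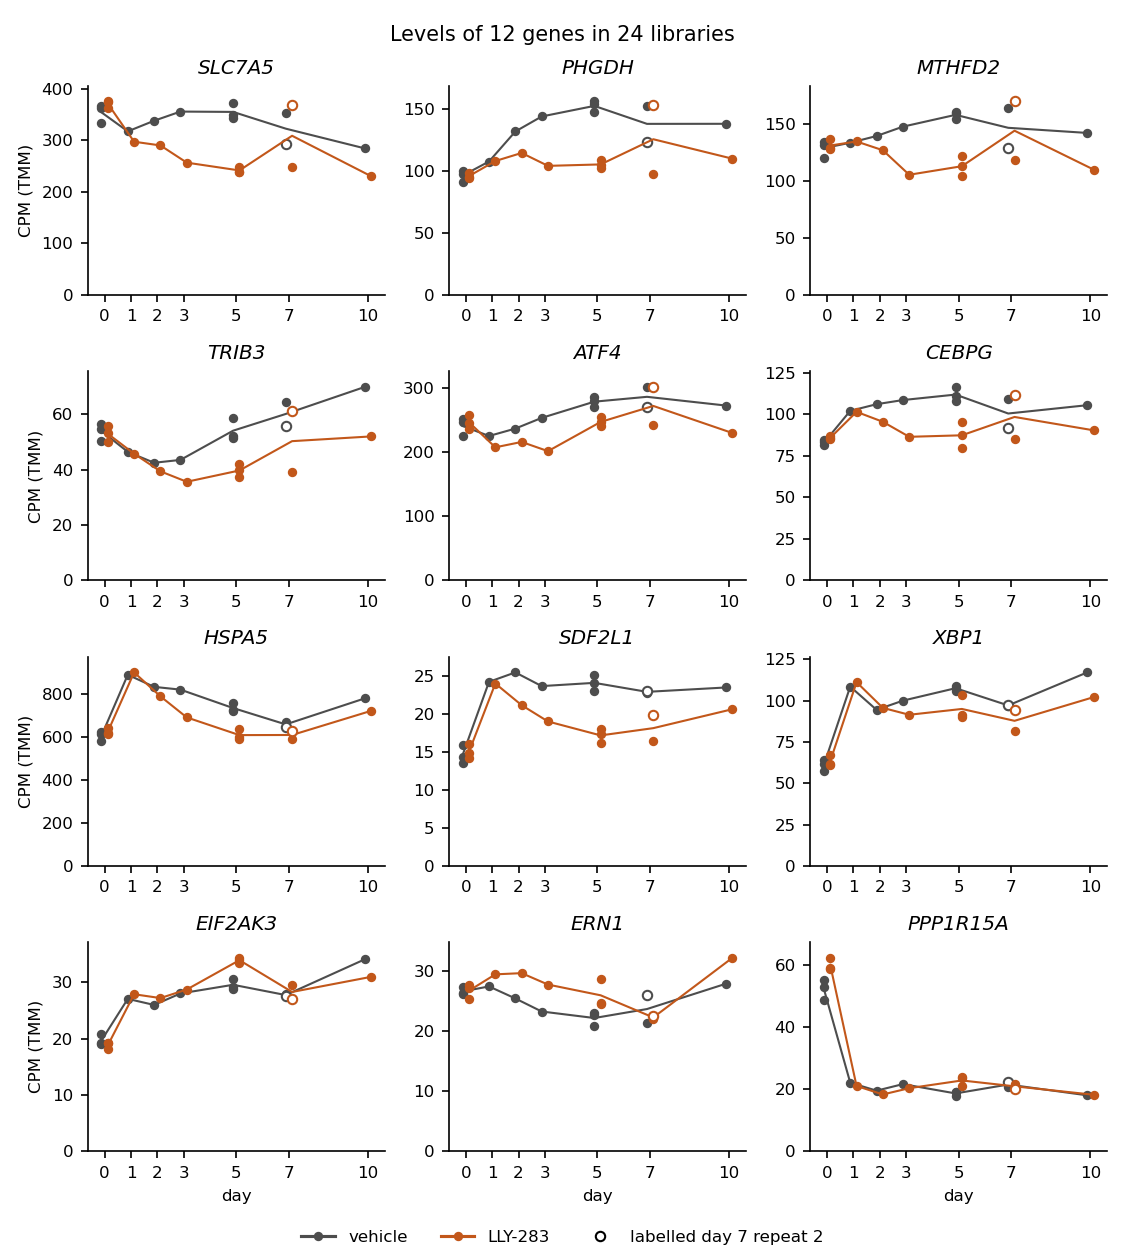
Levels (y axis, CPM with TMM scaling, from 0) of 12 genes by day (x axis) in 12 vehicle and 12 LLY-283 libraries. Points are libraries, lines join means, and open points are the day 7 libraries labelled repeat 2. XBP1 and PPP1R15A lie near their day 5 levels by day 1 in both treatment groups, HSPA5 is highest at day 1, and SLC7A5, PHGDH and MTHFD2 separate by day 3.

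With LLY-283, day 5 was set against day 0 of the same treatment group. Here 18 of 42 genes were higher and 10 lower, against 22.9% higher and 19.5% lower of 17341 genes tested, and the median was 0.08. Among members of at least 20 CPM, 16 of 36 were higher and 8 lower, beside 34.1% and 27.2% of all genes of that level. SLC7A5 measured 375.3, 363.6 and 374.2 CPM at day 0, so that its log2 fold change to day 5 was -0.60 (SE 0.0308, adjusted p = 3.47e-14, edgeR). MTHFD2, TRIB3, CEBPB and CALR were also lower at day 5 than at day 0 with LLY-283, by log2 fold changes of -0.20, -0.40, -0.26 and -0.14. The MTHFD2 call was lost without LLY-283 day 5 repeat 2 (adjusted p = 0.011), and in the fit shared by 22 libraries those of MTHFD2 (adjusted p = 0.182), TRIB3 (adjusted p = 0.0186) and CALR (adjusted p = 0.0241, edgeR) were lost. Without both day 7 libraries labelled repeat 2, the shared fit kept the calls of MTHFD2, TRIB3 and CALR. HSPA5 stood at -0.02 and ATF4 at 0.02, and neither was called. XBP1 rose by 0.60 on the log2 scale, EIF2AK3 by 0.87 and AARS1 by 0.50, and PPP1R15A was at -1.38.

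The change from day 0 to day 5 was then compared between treatment groups in a single fit, which tests the difference itself. In 15 genes the LLY-283 change was below the vehicle change and in 1 it was above, against 8.15% and 6.78% of 18369 genes. The median difference was -0.16, against 0.04 for all genes, and this test shares its day 5 libraries with the comparison at day 5. Among members of at least 20 CPM, 14 of 36 were below and 1 above, beside 16.6% and 10% of all genes of that level. SLC7A5 differed by -0.58 (SE 0.0513, adjusted p = 4.09e-09), PHGDH by -0.49 (SE 0.0542, adjusted p = 1.79e-07) and MTHFD2 by -0.47 (SE 0.0649, adjusted p = 7.86e-06, edgeR). HSPA5 differed by -0.27 (SE 0.0495, adjusted p = 0.000136) and EIF2AK3 by 0.30 (SE 0.0844, adjusted p = 0.00858, edgeR). EIF2AK3 lost its call when any of the 12 libraries was left out, with adjusted p of 0.0109 to 0.034. ASNS, PSAT1, EPRS1 and CALR each lost their calls without repeat 1 or 3 of LLY-283 at day 0, vehicle repeat 1 at day 5 or the second LLY-283 repeat of that day. Further libraries that ended a call were vehicle day 0 repeat 2 for ASNS and vehicle day 0 repeat 1 for EPRS1. The third vehicle library of day 5 did so for PSAT1 and EPRS1, the second for CALR, and the third LLY-283 library of day 5 for PSAT1, EPRS1 and CALR. In these fits the adjusted p was 0.0107 to 0.0212 for ASNS, 0.011 to 0.025 for PSAT1, 0.0101 to 0.0328 for EPRS1 and 0.0112 to 0.0256 for CALR (edgeR). In a fit shared by the 22 libraries of days 0 to 7, 0 members were called, against 0.246% of 20756 genes. In that fit 25 members had an unadjusted p under 0.05, a threshold at which all genes were not counted. At that threshold the fit of 12 libraries had 27 of 42 members, beside 6390 of 18369 genes (edgeR). Without both day 7 libraries labelled repeat 2 the shared fit called 16 members, all below, against 13.7% of 20714 genes in either direction. ATF4, XBP1 and PPP1R15A were not called, at -0.17, -0.19 and 0.13.

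**Figure D3:**
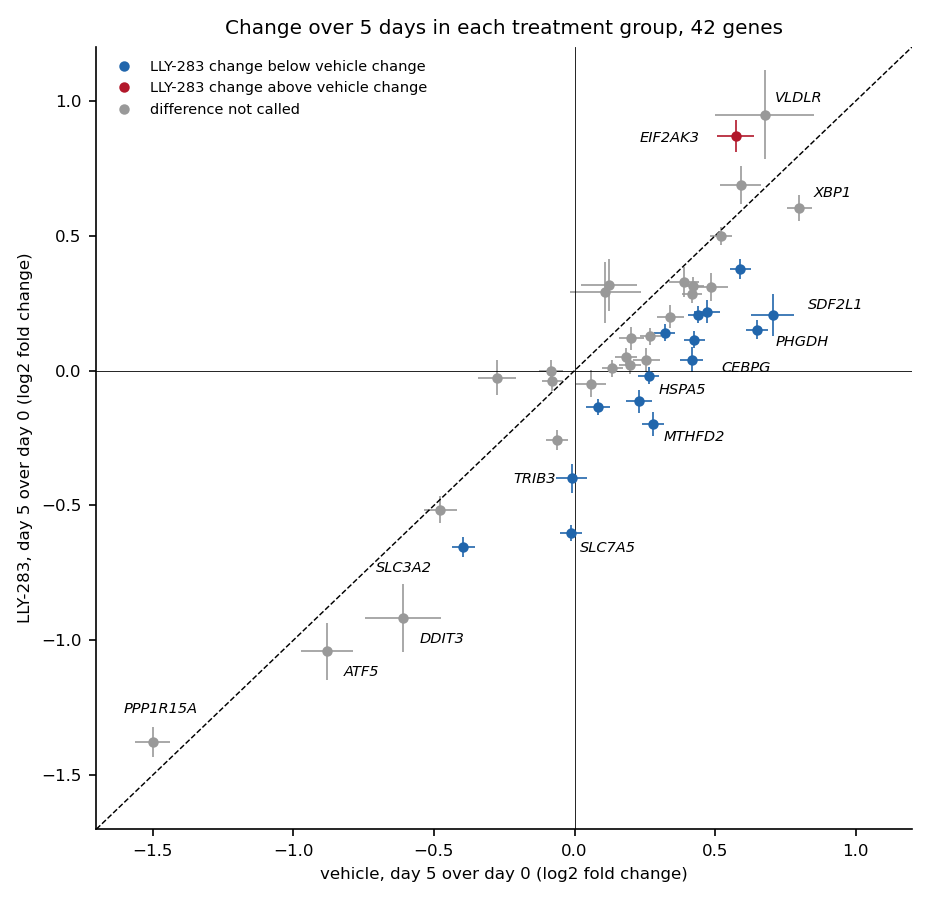
Log2 fold change from day 0 to day 5 with vehicle (x axis) and with LLY-283 (y axis) for 42 genes, from 3 libraries per group and day, with standard errors as bars. The dashed line marks equal change. The 15 genes called below it include SLC7A5 at -0.01 with vehicle and -0.60 with LLY-283.

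The libraries labelled day 0 serve as a check that the treatment groups began alike. At that day 0 members were called at an adjusted p under 0.01 in edgeR, against 0.0169% higher and 0% lower of 17780 genes. At an unadjusted p under 0.05 there were 3, which were PPP1R15A, DNAJC3 and PDIA6, beside 1012 of the 17780 genes. DESeq2 called 0 members as well. PPP1R15A measured 48.77, 55.14 and 53.08 CPM with vehicle and 62.38, 59.26 and 58.71 CPM with LLY-283. These did not overlap, with a log2 fold change of 0.19 (SE 0.0463, adjusted p = 0.301, edgeR). All 12 chaperones had log2 fold changes above 0, between 0.02 and 0.10, and the median over the 42 genes was 0.02. By separation of the libraries, 6 of 42 members were higher with LLY-283 and 0 lower, beside 7.04% and 4.87% of all genes tested.

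On days without repeats, differences between single libraries are given with no test. At day 1, 27 of 42 genes were lower with LLY-283 than with vehicle and the median difference in log2(CPM + 0.5) was -0.02. At day 2 it was 30 genes with a median of -0.08, and at day 3 it was 36 genes with a median of -0.25. Over all genes the share lower lay between 45.8% and 51.6% on every day. At day 3, SLC7A5 measured 355.7 CPM with vehicle and 256.6 CPM with LLY-283, PHGDH 143.8 and 104 CPM, and MTHFD2 147.6 and 105.4 CPM. All 4 tRNA synthetases were lower at day 3, with EPRS1 at 439.9 CPM with vehicle and 342.5 CPM with LLY-283. VLDLR went the other way on days 1 to 3, at 2.76, 3.434 and 3.549 CPM with vehicle and 4.107, 4.956 and 6.71 CPM with LLY-283. At day 10, 31 genes were lower, and SLC7A5 measured 284.3 CPM with vehicle and 230.3 CPM with LLY-283. That vehicle library stood apart from the vehicle libraries of day 5 over the other genes. Its position was 61.3% on the scale explained with the day 7 values, where the vehicle mean of day 5 is 0%. The LLY-283 library of day 10 reached 96.9% there. The vehicle library of day 10 also held the highest summed endothelial markers, at 25 CPM.

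**Figure D4:**
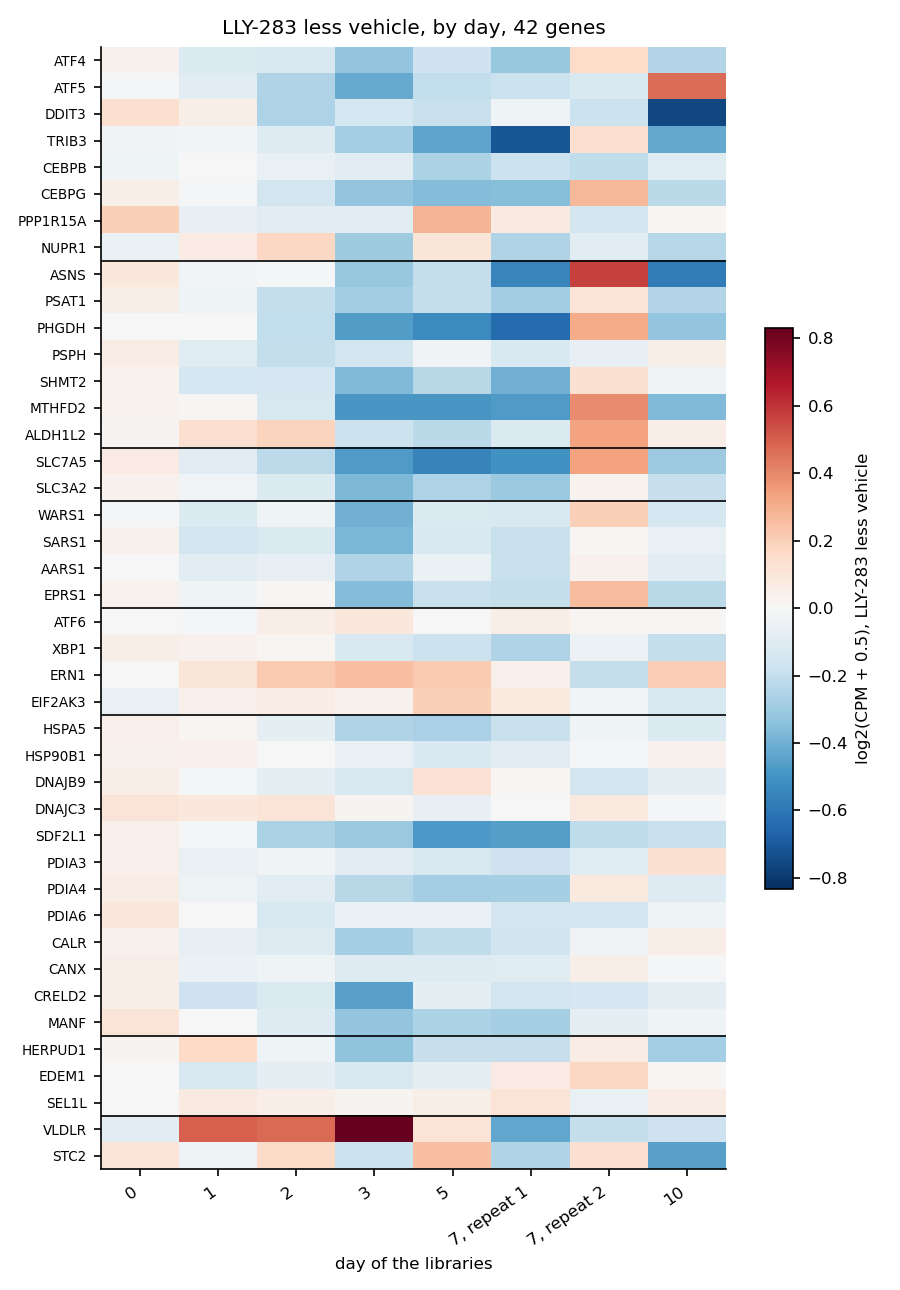
Difference in log2(CPM + 0.5), LLY-283 less vehicle, for 42 genes (rows, ordered by role with lines between roles) on each day (columns, with the repeats of day 7 apart). Blue is lower with LLY-283. The median over the 42 genes is -0.25 at day 3 and -0.18 at day 5, and 0.01 for the day 7 libraries labelled repeat 2.

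At day 7, where each treatment group had 2 libraries, 0 members were called in edgeR and in DESeq2, against 0% of 16826 genes. In edgeR 1 member, SDF2L1, had an unadjusted p under 0.05, beside 236 of the 16826 genes. The libraries of that day stood apart. On a scale set by the 4282 genes called at day 5 that are not members, with the vehicle mean of day 5 at 0% and the LLY-283 mean at 100%, the vehicle libraries labelled repeats 1 and 2 lay at -3.66% and 47%. Those labelled LLY-283 lay at 72.8% and -8.57%. Between the libraries labelled repeat 1, 34 of 42 members were lower with LLY-283 with a median difference of -0.19, and between those labelled repeat 2 it was 20 members and 0.01.

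By role, most amino acid genes took opposite directions in the repeats. So did the tRNA synthetases, with 4 of 4 lower with LLY-283 in repeat 1 and 0 in repeat 2. Of the 8 factors and feedback regulators, 7 were lower in repeat 1 and 5 in repeat 2, and ATF4, CEBPG and TRIB3 reversed. ASNS measured 92.12 and 62.67 CPM in the libraries labelled vehicle and LLY-283 repeat 1 but 66.89 and 99.4 CPM in those labelled repeat 2. Of the 7 genes for serine, asparagine and one-carbon synthesis, 7 were lower with LLY-283 in repeat 1 and 1, PSPH, was lower in repeat 2. SDF2L1 measured 22.77 and 22.96 CPM in the libraries labelled vehicle and 16.43 and 19.76 CPM in those labelled LLY-283. Of the 12 chaperones, 10 were lower in repeat 1 and 9 in repeat 2, and HSPA5, XBP1, SDF2L1, MANF and CALR had both libraries labelled LLY-283 below both labelled vehicle. Over all roles 12 members were separate in this way and 1, EDEM1, was separate in the other, beside 13.9% and 11.9% of all genes tested. No test of a difference between roles was run.

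Over the 22 libraries of days 0 to 7, the test of treatment by day called 0 members in edgeR, against 0.0289% of 20756 genes. At an unadjusted p under 0.05 there were 17 of 42 members, beside 3166 of the 20756 genes. DESeq2 called 1, HSPA5 (adjusted p = 0.00064), against 1.2% of genes. Without both day 7 libraries labelled repeat 2, edgeR called 17 members, against 9.66% of 20714 genes, led by SLC7A5 (adjusted p = 1.62e-07), PHGDH (adjusted p = 4.26e-07) and MTHFD2 (adjusted p = 4.21e-05). Without the library labelled LLY-283 repeat 1 of day 7 it called 4 members, against 4.32% of genes, and without that labelled LLY-283 repeat 2 it called 3 members, against 2.07% of genes. With days 0 to 5 alone it called 15 members, against 9.61% of genes, again led by SLC7A5 (adjusted p = 1.5e-07) and PHGDH (adjusted p = 1.21e-06, edgeR).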

How the data were processed

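The authors trimmed the reads of poly(A), directional, paired-end libraries, assigned them to human transcripts (hg38) with kallisto and deposited estimated counts per gene in whole numbers, not normalized. The kallisto version, the annotation release and the strand setting are not given in the sources used here. Directional settings matter for 18 members that share exon sequence with a gene on the other strand. All 24 columns were used, and 58207 of 58676 identifiers were matched to symbols of GENCODE 44. Library totals had a median of 18688160.5 counts.

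Counts were tested in edgeR 4.0.16 (R 4.3.3) with TMM scaling, the filter on low counts by group, robust quasi-likelihood testing and p-values adjusted over all genes by Benjamini-Hochberg, called at an adjusted p under 0.01. Each comparison was fitted on its own libraries. Standard errors are the log2 fold change divided by the root of F. Levels are CPM with TMM over 24 libraries, so a fold change may differ slightly from the ratio of levels, and differences by day are on the log2(CPM + 0.5) scale. The code was tested on simulated data. The members, role groups and other lists were chosen with earlier results of these data known. Members given in full were the 3 of smallest p in each role at day 5, the 8 of smallest p for vehicle day 5 against day 0, and ATF4, DDIT3, XBP1 and HSPA5. Of other lists, the 3 of smallest p were eligible. DESeq2, the tool the authors used, was run here in version 1.42.0 as an alternative, along with other scalings, filters, a repeat block, a shared fit and single libraries left out. Same-numbered libraries did not deviate together (correlations over genes between -0.231 and 0.102). The -0.231 is from day 7, where libraries of different number correlated at 0.231. With 2 libraries in each group these values mirror each other.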

Additional observations from a re-analysis of the deposited data

Results flagged for a closer look

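For 16 members the change from day 0 to day 5 differed between LLY-283 and vehicle in edgeR's test of that difference, at a Benjamini-Hochberg adjusted p under 0.01. Of all 18369 genes, 8.15% were called below and 6.78% above. Values are the LLY-283 change less the vehicle change on the log2 scale, with 3 libraries per group and day. In amino acid transport, SLC7A5 was at -0.58 and SLC3A2 at -0.25. In serine, asparagine and one-carbon synthesis, PHGDH was at -0.49, MTHFD2 at -0.47, ASNS at -0.24, SHMT2 at -0.22 and PSAT1 at -0.21. Among factors and feedback regulators, TRIB3 was at -0.38 and CEBPG at -0.37. The chaperone genes were SDF2L1 at -0.49, MANF at -0.34, PDIA4 at -0.30, HSPA5 at -0.27 and CALR at -0.21. The tRNA synthetase gene EPRS1 was at -0.17 and the sensor gene EIF2AK3 at 0.30. For 5 of the 16, which were ASNS, PSAT1, EPRS1, EIF2AK3 and CALR, the call was lost when at least 1 of the 12 libraries was left out. In the fit shared by 22 libraries 0 of the 16 calls were kept, so none held in every alternative. Without both day 7 libraries labelled repeat 2 that fit called 16 members, all below, against 13.7% of all genes in either direction. The test uses the same day 5 libraries as the comparison at day 5.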

How the results depend on the processing

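Leaving out each library in turn gave 16 to 24 called members at day 5, 31 to 33 for vehicle day 5 against day 0, 24 to 28 for LLY-283, 11 to 18 for the difference between those changes, 0 at days 0 and 7, and 0 to 4 for treatment by day. Calls over all genes also moved between fits, so these and the following counts do not set members beside other genes. A fit of all 22 libraries gave 8 at day 5, 18 for LLY-283 day 5 against day 0 and 0 for the difference. Without both day 7 libraries labelled repeat 2, an alternative chosen after seeing the data, the shared fit gave 22, 26 and 16. Of all genes, the fit of 22 libraries called 9.84% at day 5 and 0.246% for the difference. Without those libraries it called 20.8% and 13.7%. Treatment by day gave 1 in DESeq2 (1.2% of all genes) and 1 with no filter. It gave 17 without both libraries labelled repeat 2 (9.66%) and 15 without day 7 (9.61%), this last pair also chosen after seeing the data. With the repeat number as a block, the counts were 24 at day 5, 33 and 28 for the changes over 5 days, 13 for their difference and 0 at days 0 and 7 and for treatment by day. Crossing the day 7 numbers, also added after seeing the data, gave 0. At day 5, 8 of 22 calls were kept in all 14 alternatives, namely SLC7A5, SLC3A2, CEBPG, HSPA5, SDF2L1, PDIA4, MANF and CALR, and 0 reversed. The median at day 5 lay between -0.18 and -0.12 when single libraries were left out, and at -0.12 with library size alone. Technical repeats and single-library days limit what the other values show.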
